A study of Mus musculus with 2 samples.

Results

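The MITF and TFE factors are the 4 genes Mitf, Tfe3, Tfeb and Tfec, taken by symbol from the 23284 genes of each library. All 4 were found, and each was listed at 0.1 FPKM or more in both libraries. They were compared in the leukemic stem cells (LSCs) that arise in mice given a transplanted chronic myeloid leukemia (CML), with the question of how the family and the genes it is known to drive differ when the adaptor protein STAP-1 is missing. There was 1 RNA-seq library of WT CML LSCs and 1 of STAP-1 KO CML LSCs, so no difference has a replicate check and no test of the genotype was possible. Donors of both groups were on the C57BL/6J background, the mice of the study were 8 to 14 weeks old, and the STAP-1 KO donors carried a targeted disruption of the Stap1 locus in every cell. LSK cells (without lineage markers, Sca-1+ c-Kit+) of both genotypes received BCR-ABL, the fusion kinase of CML, together with green fluorescent protein (GFP) by retrovirus. They were transplanted with normal marrow into lethally irradiated C57BL/6SJL recipients, so that the host tissue was not STAP-1 KO in either group, and GFP+ CD45.2+ LSK cells were sorted at day 11. The sources used here do not state how many mice went into each library.

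MITF, TFE3, TFEB and TFEC are basic helix-loop-helix leucine zipper proteins that bind DNA as dimers with themselves or with one another, and not with other proteins of that class. They recognise E-box letters, CACGTG or CATGTG, and a longer form of the first, TCACGTGA, is the core of the CLEAR element found in promoters of lysosomal genes. MITF is known for its part in melanocytes, osteoclasts and mast cells, where it drives Kit and granule protease genes. TFEB and TFE3 drive lysosome and autophagy genes once they leave the lysosome surface for the nucleus, which the kinase complex mTORC1 and the Rag GTPases prevent, while TFEC is best known from macrophages. An mRNA level therefore does not state how much of such a protein was active.

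The relatedness of the 4 genes is seen in the basic region that contacts DNA. A run of 17 residues is identical in all 4 proteins, and it is shown because reads from such a stretch could in principle be assigned to the wrong paralog. The 51 bases that code for it in the reference transcripts of GENCODE M21 follow, with the 16 positions that differ among the genes in capitals.
Mitf: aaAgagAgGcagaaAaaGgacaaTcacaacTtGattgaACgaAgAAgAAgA
Tfe3: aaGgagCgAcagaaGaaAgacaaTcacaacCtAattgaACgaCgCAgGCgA
Tfeb: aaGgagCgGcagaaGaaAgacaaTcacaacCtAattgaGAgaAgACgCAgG
Tfec: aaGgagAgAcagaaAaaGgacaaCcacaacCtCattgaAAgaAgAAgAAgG
Even in this most alike stretch, the genes differed from each other at several bases, with 40 to 44 of 51 identical in a pair. No run of 75 bases, the length of a read, was found both in a transcript of a member and in a transcript of another gene. This covered 5380 runs of Mitf, 3818 of Tfe3, 5164 of Tfeb and 2211 of Tfec. Over whole proteins, Mitf and Tfe3 were the closest pair with 60.9% of aligned residues identical, and the other pairs shared 48.1% to 50.5%.

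Values are FPKM, read fragments scaled to transcript length and to library size, so levels of different genes can be set side by side. The ratio is STAP-1 KO over WT. The log2 ratio has 0.1 FPKM added to both values, which understates differences of low genes. Reads behind a value were estimated from the steps between low values, which gave effective depths of 7500000 reads for WT and 10470000 for STAP-1 KO. Of the low values used, 38.0% of 305 and 41.2% of 362 lay within 0.01 of a whole read, so these depths are approximate. For a transcript of 2000 bases, 3 reads correspond to 0.223 FPKM in WT and 0.16 FPKM in STAP-1 KO. Intervals are 95% exact binomial intervals from estimated reads and cover counting error only, not differences between mice. Stap1 itself was at 62.0 FPKM in WT and 0.309 FPKM in STAP-1 KO. Of the sorting antigens, Ly6a (Sca-1) was at 285 and 106 FPKM and Kit at 468 and 30.1 FPKM, so the Kit transcript was 15.6-fold lower in cells gated on its protein.

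Mitf and Tfec, both on chromosome 6, were far apart in opposite directions, Tfe3 was lower in STAP-1 KO, and Tfeb was nearly level. Mitf had 12.7 FPKM in WT and 0.878 FPKM in STAP-1 KO, and was 14.4-fold lower (interval 10.5 to 20.2). Tfe3 had 21.8 FPKM in WT and 6.87 FPKM in STAP-1 KO, and was 3.17-fold lower (interval 2.71 to 3.72). Tfeb had 5.30 FPKM in WT and 5.50 FPKM in STAP-1 KO, a ratio of 1.04 with an interval from 0.78 to 1.38. Its counting interval therefore includes no difference and leaves out a 2-fold one. Tfec had 0.934 FPKM in WT and 18.2 FPKM in STAP-1 KO, and was 19.5-fold higher (interval 10.8 to 39.7). Thus 2 of the 4 members were at least 2-fold lower and 1 at least 2-fold higher in STAP-1 KO. Among the 12507 genes with 0.1 FPKM or more in both libraries, 22.9% were at least 2-fold lower and 12.3% at least 2-fold higher, so being lower by that much was common in this comparison.

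**Figure D1:**
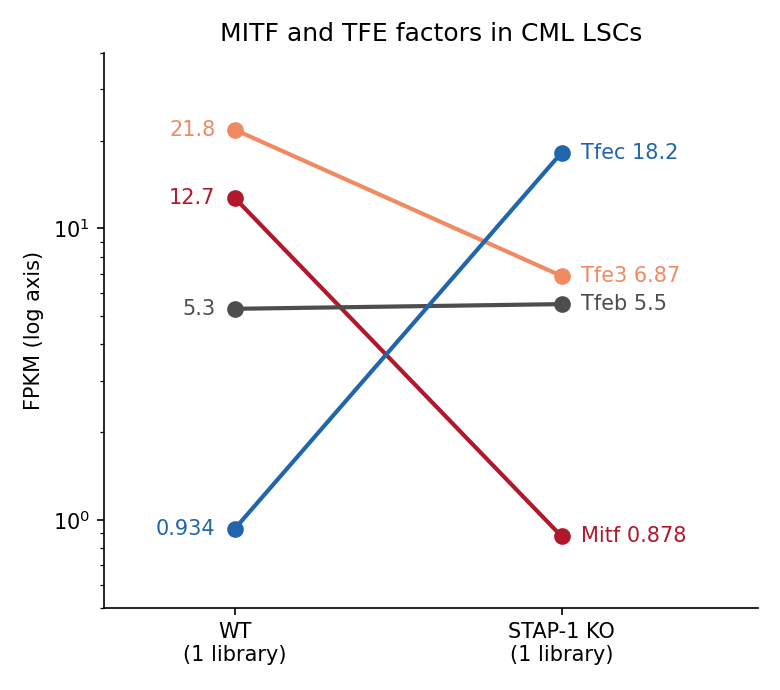
FPKM of Mitf, Tfe3, Tfeb and Tfec (log axis) for WT and STAP-1 KO, 1 point per library and gene, with no error bars because there is 1 library per genotype. Mitf goes from 12.7 to 0.878 and Tfec from 0.934 to 18.2 FPKM, while Tfeb stays between 5.30 and 5.50.

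Mitf, the member with a part in mast cells and melanocytes, lies on the plus strand at chr6:97807052-98021349 (GRCm38) and has 8 annotated transcripts, 6 of them coding. Its log2 ratio was -3.71, and 154 genes (1.23% of the 12507) had the same ratio or a lower one. About 444 reads in WT and 43.0 in STAP-1 KO stand behind it if the longest coding transcript of 4881 bases was used. With a transcript of 1921 bases the estimate is 163 and 15.8 reads, and the interval of the fold widens to 8.50 to 25.5. The files give 1 value for a gene, so the promoters and first exons by which Mitf isoforms of different cell types differ were not separated.

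Tfec, the macrophage member, lies on the minus strand at chr6:16833373-16898441 and has 5 annotated transcripts, of which 2 are coding. Only 7 genes, Tfec included, had as high a ratio, which is 0.056% of the 12507, and its log2 ratio was 4.14. The WT value rests on about 11.1 reads and the STAP-1 KO value on about 301, so the WT level is the less certain side of this ratio. In WT 11068 genes were above Tfec, and in STAP-1 KO 4858 were.

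Tfe3, at chrX:7762560-7775202 on the plus strand, had a log2 ratio of -1.65 from about 520 reads in WT and 229 in STAP-1 KO. A ratio as low or lower was found for 1484 genes (11.9%), so Tfe3 stood less apart from other genes than Mitf. Tfeb, at chr17:47737030-47792419 on the plus strand, had a log2 ratio of 0.05 from about 84.8 and 123 reads. Tfe3 and Tfeb act on largely shared lysosomal targets, and their summed level was 27.1 FPKM in WT and 12.4 FPKM in STAP-1 KO.

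**Figure D2:**
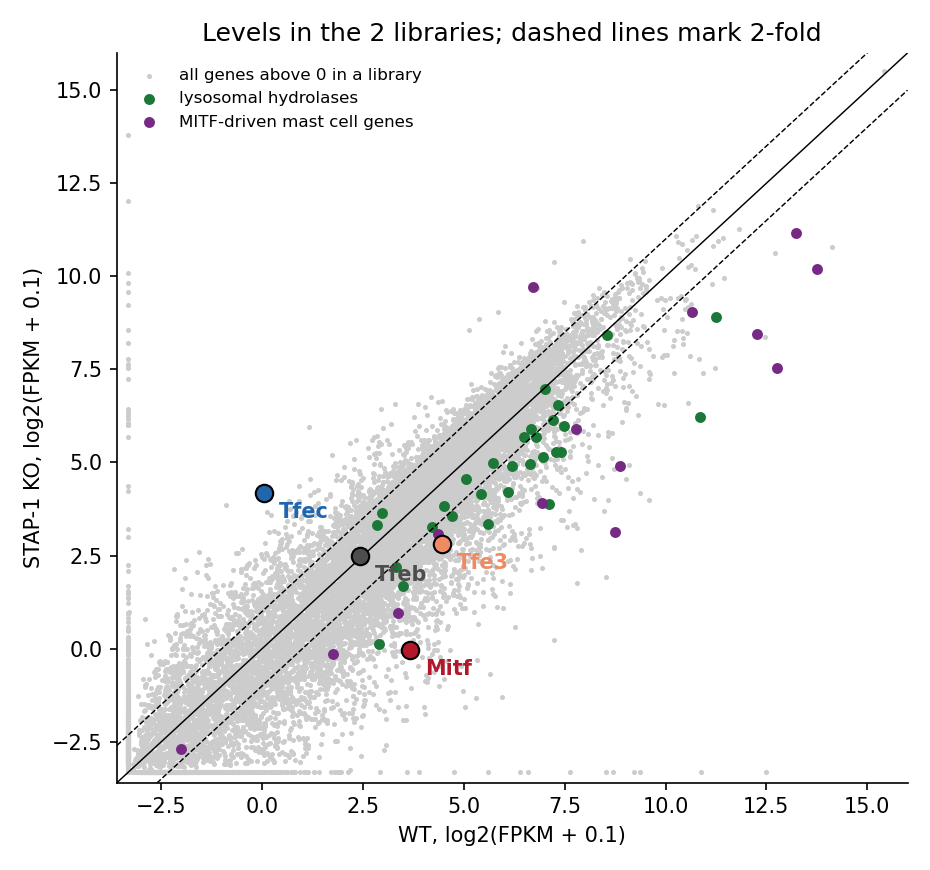
Each point is a gene, with log2(FPKM + 0.1) in WT on the x axis and in STAP-1 KO on the y axis. The solid line marks equal levels and the dashed lines 2-fold. Tfec, 19.5-fold higher in STAP-1 KO, lies above the dashed lines, Tfeb on the diagonal, and Tfe3 and Mitf below, on the side of most lysosomal hydrolase and MITF-driven mast cell genes.

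The order of the members differed between the libraries. In WT it was Tfe3, Mitf, Tfeb and Tfec, with 53.6%, 31.1%, 13% and 2.29% of their summed 40.7 FPKM. In STAP-1 KO it was Tfec, Tfe3, Tfeb and Mitf, with 57.8%, 21.9%, 17.5% and 2.79% of 31.4 FPKM. The member that was least abundant in WT was thus the most abundant in STAP-1 KO. Tfec was at 0.0737 of the Mitf level in WT and at 20.7 times the Mitf level in STAP-1 KO. Tfe3 exceeded Tfeb 4.11-fold in WT and 1.25-fold in STAP-1 KO, so their levels were closer in STAP-1 KO, where they were neighbours in the order. Because the factors pair within the family, these shares describe which transcripts were present, not which dimers formed. In bulk RNA, fewer cells of a type and less RNA per cell cannot be told apart, which holds for the differences of the members and of the gene lists.

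The ratio of the libraries varied with transcript length over all genes, and the members differ in length. Among 20 groups of genes ordered by their longest coding transcript, the median log2 ratio went from 0.51 in the shortest to -1.0 in the longest. Genes of Mitf's length had a median of -0.67, with the outer deciles at -2.49 and 0.59. Mitf lay below them, and with this median taken off its log2 ratio was -3.04. For Tfec the group's median was 0.30 and the corrected log2 ratio 3.84, and for Tfe3 they were -0.11 and -1.54. Tfeb came to -0.21 after the correction, so its sign depends on it. With the shorter Mitf transcript as its length the corrected value was -4.06. Mitf and Tfec therefore kept their directions and lay outside the deciles of genes of like length, while Tfe3 lay at the edge of them, with the lowest decile at -1.64.

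**Figure D3:**
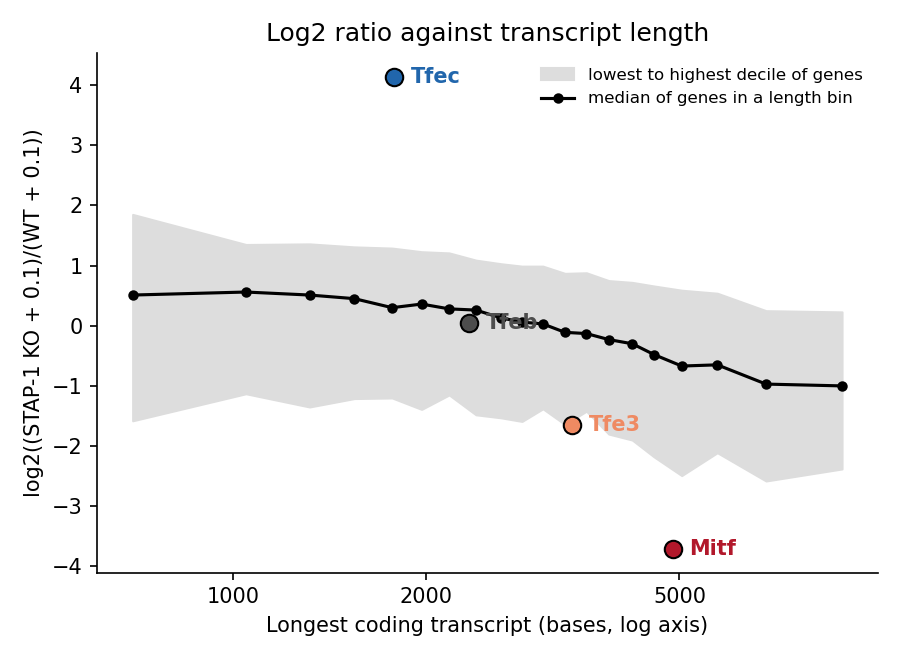
Log2 ratio of STAP-1 KO over WT against the longest coding transcript (log axis). The line joins the medians of 20 groups of genes and the grey band spans their lowest to highest decile. Mitf (-3.71) lies below the band, Tfec (4.14) above it, Tfe3 (-1.65) at its lower edge and Tfeb (0.05) near the line.

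The genes whose pair of levels was most like each member's were found by the distance between log2(FPKM + 0.1) values over the 2 libraries, which is a description over 2 points only. Nearest to Mitf were Acsbg1, an acyl-CoA synthetase gene, with 12.9 and 0.893 FPKM, then Igsf5 and Nbeal2, and 27 genes lay within 0.5. Around Tfe3 (Tnfsf9, Agpat3 and Rapsn nearest) 168 genes lay within 0.5, and around Tfeb (1700030K09Rik, Tle1 and Gna11 nearest) 385 did. Tfec had none that close. Its nearest genes were the interferon-induced Ifi44 at a distance of 0.54 (0.988 and 12.6 FPKM), 5730528L13Rik, and Lbp, the lipopolysaccharide-binding protein gene, at 0.66 (1.5 and 15.6 FPKM).

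Among genes described as driven by MITF in mast cells, nearly all were lower in STAP-1 KO. Of 15 such genes 13 were at 0.1 FPKM or more in both libraries. Of these, 12 were at least 2-fold lower (92.3% against 22.9% of all genes) and 1 was at least 2-fold higher (7.69% against 12.3%), with a median log2 ratio of -2.41 against -0.04 over the 10974 genes averaging 1 FPKM or more. The tryptase genes Tpsab1 and Tpsb2 went from 430 to 8.74 and from 7016 to 185 FPKM. The chymase gene Cma1 had 13924 FPKM in WT and 1168 FPKM in STAP-1 KO. Tph1, the serotonin synthesis enzyme of mast cells, had 4942 and 352 FPKM, and Kit, the stem cell factor receptor, was described above. The exception, named after its values were seen, was Ctsg, which was 8.05-fold higher and is also a neutrophil granule gene. Mast cell protease genes belong to clusters of similar genes, so how reads were divided among them is uncertain. The 2 genes that were not counted were Mcpt9, under the floor in STAP-1 KO, and Ngfr, listed at 0 in both.

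These genes cannot be separated from the mast cell markers as a whole. Of 14 mast cell and basophil markers, 4 of which are also in the list above, 12 were measured in both libraries and 11 were at least 2-fold lower (91.7% against 22.9% of all genes), with a median of -3.26. Their summed level was 52392 FPKM (8.07% of all FPKM) in WT and 5355 FPKM (0.886%) in STAP-1 KO. Il1rl1, the IL-33 receptor gene, went from 521 to 23.3 FPKM and Hdc, the histamine synthesis enzyme, from 5629 to 330 FPKM. Prss34, the 1 measured marker within 2-fold, had 71.1 and 56.7 FPKM and was named after its values were seen. The Mrgpr receptor genes of mature mast cells were near the floor, with Mrgprb1 at 0 in WT and Mrgprb2 at 0 in STAP-1 KO. Without the 4 shared genes, 8 of the 9 remaining MITF-driven genes (88.9%) were lower and their median was -2.07. The part of the mast cell markers in the Mitf difference was not tested.

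Of markers of other cells, those of the neutrophil lineage were higher in STAP-1 KO, as Tfec was. The primary granule genes of early neutrophil progenitors were summed at 580 FPKM in WT and 4683 FPKM in STAP-1 KO, and 7 of 8 were at least 2-fold higher (87.5% against 12.3% of all genes), with Mpo (myeloperoxidase) at 248 and 1973 FPKM. Csf3r, the G-CSF receptor gene, was 8.81-fold higher. Monocyte and macrophage markers differed in both directions. Of 12, 9 were measured in both libraries, with 3 higher (33.3% against 12.3% of all genes), 4 lower (44.4% against 22.9%) and sums of 196 and 153 FPKM. In this list Csf1r (M-CSF receptor) had 1.56 and 5.31 FPKM and Ly6c2 20.5 and 98.0 FPKM, whereas Adgre1 (F4/80, listed as Emr1) had 30.7 and 4.34 FPKM and Ccr2 41.8 and 10.3 FPKM. None of these 12 markers was at 0 in either library. The part of these cell types in the Tfec difference was not tested.

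The remaining marker lists are small, and their counts stand beside 12.3% higher and 22.9% lower among all genes. Hematopoietic stem cell markers had 1 higher (11.1%) and 4 lower (44.4%) of 9 measured, with sums of 1050 and 349 FPKM. Kit, Ly6a and Cd34 made up nearly all of these sums, Kit and Ly6a being sorting antigens and 2 of the 4 lower genes, and the other 7 markers summed to 15.5 and 19.3 FPKM. Megakaryocyte and erythroid markers had 4 of 10 lower (40%) and none higher, with sums of 1938 and 999 FPKM. Lymphoid markers had 3 higher (60%) and 1 lower (20%) of 5, with sums of 19.3 and 46.0 FPKM, and Pax5 and Ebf1 were at 0 in both libraries. In the other cell types that MITF is known for, many genes were at or near 0. Of 10 melanocyte genes, 6 were at 0 in both libraries (Tyr, Tyrp1, Dct, Mlana, Slc45a2 and Oca2). The 2 measured in both were Slc24a5, at 6.14 and 11.1 FPKM, and Pmel, at 0.833 and 0.249 FPKM. Of 10 osteoclast genes, 4 were measured in both libraries. Atp6v0d2, a proton pump subunit of osteoclasts, had 25.0 FPKM in WT and 0.874 FPKM in STAP-1 KO. Itgb3 was 7.80-fold and Nfatc1 3.71-fold lower, while Acp5 (tartrate-resistant acid phosphatase) had 19.8 and 24.0 FPKM.

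**Figure D4:**
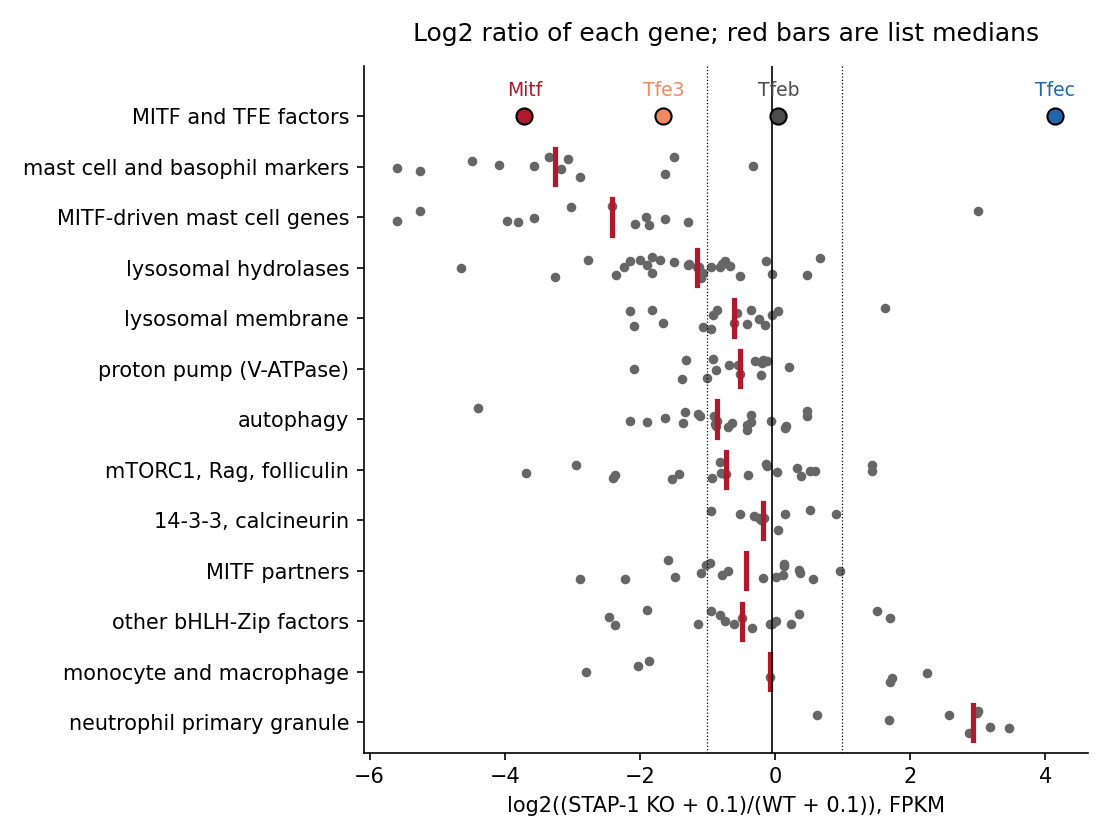
Log2 ratio of STAP-1 KO over WT for the members and for the genes of 12 lists that averaged 1 FPKM or more, 1 point per gene. Red bars are list medians, the solid line is the median of all genes (-0.04) and dotted lines mark 2-fold. Medians run from -3.26 for mast cell and basophil markers and -1.15 for lysosomal hydrolases to 2.93 for neutrophil primary granule genes.

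Lysosomal hydrolases, the best known targets of TFEB and TFE3, were lower in STAP-1 KO in most cases. All 29 were measured in both libraries, 18 were at least 2-fold lower (62.1% against 22.9% of all genes) and none was 2-fold higher. Their median log2 ratio was -1.15, and -1.45 after the length correction. Glb1, the beta-galactosidase of the lysosome, had 1849 FPKM in WT and 74.3 FPKM in STAP-1 KO and was 24.9-fold lower. Naglu, an enzyme of heparan sulfate breakdown, was 4.75-fold lower. The proteases Ctsd (2453 and 480 FPKM) and Tpp1 (171 and 38.8 FPKM) were also lower. Summed over the list, 6717 FPKM in WT stood against 1769 FPKM in STAP-1 KO, of which Ctsd and Glb1 made up the greater part in WT.

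The other parts of the lysosome differed less. Of 18 measured lysosomal membrane genes 5 were at least 2-fold lower and 1 higher, with a median of -0.61. Cd63, a tetraspanin of lysosomes and granules, was 3.53-fold lower, Laptm5 4.25-fold, the cholesterol transporter gene Npc1 4.58-fold and the chloride channel gene Clcn7 3.19-fold. Laptm4b was 3.14-fold higher. Mcoln1, the calcium channel whose opening releases TFEB through calcineurin, had 25.9 and 17.5 FPKM, and Gpnmb, a frequent reporter of TFE activity, was at 0.0372 FPKM in WT and listed at 0 in STAP-1 KO. Of the 16 proton pump genes 4 were lower and none higher, with a median of -0.52. The largest fold among them was that of Atp6v0a1, at 23.9 and 5.56 FPKM. Among 24 autophagy genes 8 were lower and 1 higher, with a median of -0.86. The lower ones included Tecpr1 (70.2 and 3.24 FPKM), the cargo receptor gene Sqstm1 (1050 and 238 FPKM), Atg9a, Vps8 and Gabarap. The length correction took the log2 ratio of Vps8 from -1.62 to -0.95, short of 2-fold, while the others named stayed beyond it. The higher one, named after its values were seen, was Atg9b at 0.289 and 1.31 FPKM. Over these 4 lists together 35 of 87 measured genes (40.2%) were at least 2-fold lower and 2 (2.30%) higher, against 22.9% and 12.3% of all genes. The hydrolases hold 18 of the 35, or 62.1% of their list, while the share lower was 27.8% of membrane genes, 25% of proton pump genes and 33.3% of autophagy genes.

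CLEAR elements were looked for in RefSeq promoters (GRCm38.p6), which span 250 bases before to 50 after a start site. Each line shows TCACGTGA in capitals with 16 bases on either side, in 4 example genes, picked after their positions were known from those whose element lies wholly before the start site.
Ctsd, chr7:142387903-142387942, minus strand: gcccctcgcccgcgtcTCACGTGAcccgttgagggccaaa
Mcoln1, chr8:3500457-3500496, plus strand: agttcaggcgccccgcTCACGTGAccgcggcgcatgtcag
Cln3, chr7:126583335-126583374, minus strand: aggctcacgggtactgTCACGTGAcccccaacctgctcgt
Atp6v1a, chr16:44139368-44139407, minus strand: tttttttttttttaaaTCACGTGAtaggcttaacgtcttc
The promoters show the same 8 letters, a palindrome, at different distances from the start, in genes that were 5.11-fold (Ctsd), 1.48-fold (Mcoln1), 1.83-fold (Cln3) and 1.88-fold (Atp6v1a) lower in STAP-1 KO. The shorter CACGTG, which is contained in TCACGTGA, was present in promoters of 9 of 21 hydrolase genes (42.9%), 5 of 15 membrane genes (33.3%), 4 of 11 proton pump genes (36.4%) and 3 of 19 autophagy genes (15.8%) that had an entry. Over all genes the share was 8.09%. The hydrolase and membrane lists were drawn up as genes of the CLEAR network, so a higher share there is in part built in. No CACGTG was found for the 11 MITF-driven mast cell genes with an entry, and TCATGTGA was found in 1 of them, Hpgds, against 1.15% of all genes. Both strands were searched in each case. Among genes averaging 1 FPKM or more, the 9 hydrolases with CACGTG had a median log2 ratio of -1.82 and the 12 without it -0.86. For the proton pump the medians were -0.89 (4 genes) and -0.51 (7 genes). The order was the other way for membrane genes, at -0.71 (4 genes) and -0.92 (9 genes), and for autophagy genes, at -0.64 (3 genes) and -0.88 (15 genes). The ranges of genes with and without the letters overlapped in each list, and this division was made after the values were seen.

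The 9 RefSeq promoters of the members, 3 for Mitf, 2 for Tfe3, 3 for Tfeb and 1 for Tfec, held none of CACGTG, TCACGTGA and TCATGTGA. The Tfec promoter is printed because Tfec had the largest listed fold of the family, although its counting interval overlaps that of Mitf. Its capitals mark AGGAAGT, letters that hold the GGAA core of sites for ETS factors such as PU.1, and this motif was picked after the sequence had been read.
Tfec promoter, chr6:16898392-16898691, minus strand: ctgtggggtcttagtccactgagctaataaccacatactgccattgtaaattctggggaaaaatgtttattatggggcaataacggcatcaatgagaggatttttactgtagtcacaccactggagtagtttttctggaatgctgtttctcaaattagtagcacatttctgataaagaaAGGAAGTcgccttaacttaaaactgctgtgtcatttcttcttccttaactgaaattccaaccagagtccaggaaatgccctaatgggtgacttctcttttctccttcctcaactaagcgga
AGGAAGT on either strand occurs in 9.35% of all 32851 promoters and also in 1 Tfe3 promoter, and a match does not show that a factor binds. Spi1, the PU.1 gene (listed as Sfpi1), was at 84.5 FPKM in WT and 92.7 FPKM in STAP-1 KO.

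The genes that place TFEB and TFE3 proteins in the cytoplasm or nucleus were mixed. Of 21 measured genes of mTORC1, the Rag GTPases, the folliculin complex and their regulators, 6 were at least 2-fold lower (28.6%) and 2 higher (9.52%), near the 22.9% and 12.3% of all genes. Their median of -0.73 was -0.11 over the genes averaging 5 FPKM or more. Folliculin is the activator of RagC and RagD that TFE3 retention depends on. Flcn itself had 41.5 and 23.6 FPKM, while its partners Fnip1 (13.3 and 1.64 FPKM) and Fnip2 (4.94 and 0.291 FPKM) were 8.14-fold and 17.0-fold lower. Mtor was 5.62-fold, its partner Rptor 2.96-fold and the mTORC1 inhibitor gene Tsc2 5.30-fold lower. These transcripts are long, and the length correction took the log2 ratio of Mtor from -2.37 to -1.37, of Rptor from -1.53 to -0.55 and of Fnip2 from -3.69 to -2.71. Rragc had 116 and 60.8 FPKM, and Rragd was at 0.469 and 0.0987 FPKM, under the floor. The higher genes were Lamtor4 (listed as 0910001L09Rik; 19.1 and 52.0 FPKM), a part of the complex that holds the Rag proteins, and Rragb (3.54 and 9.68 FPKM), the second named after its values were seen. The length correction took the log2 ratio of Lamtor4 from 1.44 to 0.92, short of 2-fold, and that of Rragb from 1.43 to 1.15. The 14-3-3 and calcineurin genes, which hold and release the factors, differed little, with 1 of 11 lower (9.09% against 22.9% of all genes), none higher and a median of -0.18.

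Proteins that bind or modify MITF, and factors that act on its gene or beside it, were lower in 6 of 18 cases (33.3%, against 22.9% of all genes) and higher in none. Their median log2 ratio was -0.43, and -0.09 after the length correction. Gata2, which acts with MITF in mast cells and is also in the mast cell marker list, had 409 FPKM in WT and 55.2 FPKM in STAP-1 KO. Of the MITF inhibitors, Pias3 was 2.85-fold lower (7.67 and 2.69 FPKM) and Hint1 had 307 and 601 FPKM, a ratio of 1.95 that stays short of the 2-fold line. The coactivator gene Ep300 was 4.87-fold lower and Crebbp 3.12-fold lower, and after the length correction their log2 ratios were -1.22 and -0.58. Stat5b was 2.15-fold lower, with a log2 ratio of -1.10 that the same correction took to -0.43, and Stat5a had 20.8 and 18.3 FPKM. Pax3 and Sox10, which drive Mitf in melanocytes, were at 0 in both libraries.

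Other factors of the same structural class, which bind similar E-box letters but do not pair with the family, held about the same shares of higher and lower genes as all genes. Of 17 measured, 2 were at least 2-fold higher (11.8% against 12.3% of all genes) and 4 lower (23.5% against 22.9%), with a median of -0.49 (-0.27 after the length correction). Myc was at 59.3 and 169 FPKM and Mycn at 9.66 and 31.6 FPKM, both higher in STAP-1 KO. Mxd1, an antagonist of Myc, was 5.23-fold lower, Mycl (listed as Mycl1) 6.18-fold and Mnt 4.10-fold. None of the 17 had a ratio as far from 1 as Mitf or Tfec, the lowest log2 ratio being -2.45 and the highest 1.70.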

How the data were processed

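RNA of sorted cells was turned into cDNA with a SMART-Seq kit for low input, and single reads of 75 bases were obtained. Mapping by the authors to mm10 used TopHat2 2.0.13 and Bowtie2 2.2.3, and the deposited FPKM values were made with Cufflinks 2.2.1 tools (SAMtools 0.1.19 in the submitters' processing notes). The annotation and the setting by which Cuffnorm, the tool that computed FPKM, normalised between libraries are not given in the sources used here, and FPKM files state no read totals.

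Ratios, counts past 2-fold (0.1 FPKM or more in both libraries, no pseudocount), medians (mean of at least 1 FPKM) and length correction (20 bins) were computed in Python 3.11.15 (scipy 1.17.1, pandas 2.3.3, numpy 2.4.6), and proteins translated from GENCODE transcripts were aligned with Biopython 1.88. Symbols were matched to GENCODE M21 (GRCm38), 20911 as written and 1900 by an older symbol, with 473 unmatched. The 2-fold calls, medians of changed genes, the length correction and the depth estimate were tested on simulated data. The nearest genes, the rescalings and the motif counts were not. The members and the 17 gene lists were chosen with earlier results of these data known. Named genes are the members, fixed pathway and sorting genes, up to 5 genes a list whose absolute log2 ratio was largest when 1 FPKM was added to both values, and the 3 nearest genes of each member. Of the genes so chosen, 1 is not reported here. Alternatives changed the pseudocount, floor, fold, scaling, mean level, transcript length and use of estimated reads.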

Additional observations from a re-analysis of the deposited data

How the results depend on the processing

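The log2 ratios of Mitf, Tfe3 and Tfec kept their direction under each alternative tried. With a pseudocount of 1 FPKM they were smaller for Mitf (-2.86) and Tfec (3.31), as that construction draws low values together, and the length correction gave -3.04 for Mitf. Tfeb, near 0 at 0.05, became -0.21 with the length correction. It became -0.39 when the shortest coding transcript of at least 1500 bases was used, an alternative chosen after seeing the data. For Tfeb this transcript has 1607 bases and its coding part starts at its first base, so it may be incomplete. For the 10 lists of the pathway and of mast cells, 80 alternatives turned no sign of a median, though that of the MITF partner list reached 0.00 with unexpressed genes included. The other 7 lists had only the length correction, which took the monocyte and macrophage median from -0.08 to 0.40. Counts of genes followed the fold chosen, with 3201 genes higher at 1.5-fold, and 300 higher and 1071 lower at 4-fold. Rescaling each library to the same sum gave -3.66 for Mitf, 4.29 for Tfec and 0.16 for Tfeb. With estimated reads in place of FPKM, Tfec made up 43.2% of the 4 members in STAP-1 KO and Mitf 6.18%, and Tfe3 49.1% and Mitf 41.9% in WT. No paired analysis was possible because there was 1 library per genotype. At about 11.1 reads, the WT level of Tfec is the member value that depth limits most.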
